A study of Mus musculus with 36 samples.

Results

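Growth hormone and STAT5 signalling was followed in mouse liver through 10 genes: the receptors Ghr and Prlr, the kinase gene Jak2, the transcription factor genes Stat5a and Stat5b, the feedback inhibitor genes Socs2 and Cish, and the transcription factor genes Bcl6, Cux2 and Onecut1. The genes were taken by name, and every probe that the array design names for them was used, which gave 25 probes of 56605 non-control probes. All 25 probes passed the filter on dim probes, which asked for a signal well above background in 6 or more of the 36 livers, and all 10 genes were among the 22895 tested. Liver RNA came from 36 male C57BL/6J mice, 11 weeks old, fed standard chow ad libitum without treatment, with 1 single-colour Agilent array per mouse. Knockout mice (IRLKO) carry loxP sites around the fourth exon of the insulin receptor gene Insr and a tamoxifen-inducible Cre driven by the transthyretin promoter, which restricts deletion to hepatocytes. Control mice (IRLWT) are given as wild type for hepatocyte insulin receptor. The labels do not say when tamoxifen was given or whether controls carried the Cre or received the drug. Livers were taken at Zeitgeber times ZT8, ZT12 and ZT16, with lights off at ZT12, with 6 mice for each genotype at each time, 6 groups in all.

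Growth hormone binds its receptor on hepatocytes, which activates the receptor-bound kinase JAK2. JAK2 phosphorylates STAT5A and STAT5B, and these enter the nucleus and drive transcription of target genes. Among the targets, SOCS2 and CISH feed back on the receptor complex, Onecut1 (also called Hnf6) is induced, and Bcl6, a repressor that competes with STAT5 for binding sites, is reduced. In male rodents the pituitary releases growth hormone in pulses with near-empty intervals, and in females release is closer to continuous. Much of the sex difference in liver gene expression depends on that pattern, and Cux2 is a female-biased liver transcription factor.

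Values below are log2 signals relative to the 75th percentile of each array, so 0 is the level of a fairly bright probe, and levels of different probes are not comparable. Differences are knockout minus control from a limma fit over all 36 arrays with wash batch as a term. Control ZT16 replicate 6 is the only array of its group in wash batch 1. The same holds for knockout ZT8 replicate 5 in batch 2 and knockout ZT12 replicate 6 in batch 3. Differences within those batches at those times therefore rest on a single mouse of that genotype. An adjusted p is Benjamini-Hochberg over all genes tested, and a gene was called when it was under 0.05. Nothing in the labels says more about the mice of a group than that they are separate animals.

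The knockout label was checked first. The Insr probe that represents the gene averaged -1.40 ± 0.25 (SD, n = 6) in controls at ZT8 and -3.17 ± 0.25 (SD, n = 6) in knockouts. Its difference was -1.77, -1.88 and -1.65 at ZT8, ZT12 and ZT16, with adjusted p of 2.9e-11 or smaller. A dimmer Insr probe gave -0.95, -1.46 and -0.59 (adjusted p = 0.00036, 6.1e-07 and 0.017 over all probes), and its groups overlapped at ZT16. In knockouts it was well above background on 4, 1 and 4 of 6 arrays. Whether these probes lie within the deleted exon was not examined, so they show transcript level and not the deletion itself. Between 53.7% and 63.1% of spots on an array were well above background. The library of knockout ZT8 replicate 3 stood apart from its group, with r = 0.978 to the median of the other 5 against 0.988 or more for every other array, and without it no call of a member's genotype effect at ZT8, ZT12 or ZT16 changed. Change was broad, with 35.5% of all genes called at ZT8, 42.3% at ZT12 and 40.0% at ZT16. By direction, 16.7%, 19.6% and 20.0% of all genes were called higher and 18.7%, 22.7% and 20.0% lower. The marker counts below are to be read against these shares, and several lie near them. Hepatocyte markers were abundant in every group: the summed level of 5 markers ranged from 11.72 to 12.12 in controls and from 11.25 to 11.84 in knockouts. Of these 5 markers 3, 3 and 4 were lower in knockouts at the 3 times, with Ttr, whose promoter drives the Cre, at -1.12, -1.02 and -0.97 (adjusted p of 1.3e-11 or smaller) and Alb at -0.41, -0.35 and -0.39. The summed level of 7 macrophage markers ranged from 5.24 to 7.32 in controls and from 6.07 to 8.33 in knockouts, and 2, 5 and 2 of them were called higher. The summed level of 6 endothelial markers ranged from 4.62 to 5.29 in controls and from 4.72 to 5.52 in knockouts, and 0, 5 and 4 were called higher. Of 6 lymphocyte markers 3, 4 and 4 were called higher and 1, 2 and 1 lower, and of 7 stellate cell markers 0, 3 and 3 were called higher. Of 3 red cell markers tested of 5, Alas2, of heme synthesis, fell by 3.50, 2.81 and 1.77. The globin genes Hba-a1 and Hbb-bt differed by -0.12 and -0.40 at ZT8 (not called) and rose by 0.95 and 1.10 at ZT12 and by 0.91 and 1.04 at ZT16. The summed red cell level ranged from 7.37 to 9.34 in controls and from 7.58 to 9.53 in knockouts. Of 6 pancreas markers 1 was tested, Cela1, with -1.90, -1.42 and -1.62 (adjusted p of 2.3e-11 or smaller). Of 6 bile duct markers 0, 0 and 1 were called higher and 0, 1 and 0 lower. Of 4 fat markers 1, 2 and 1 were called lower, with Cfd among them at each time. Cfd was well above background on 13 of 18 control and 1 of 18 knockout arrays, so it passed the filter through controls only. Lep, well above background on all 36 arrays, was called lower at ZT12 (-0.33, adjusted p = 0.019). All the hepatocyte, macrophage and endothelial markers were well above background on all 36 arrays, and the part of these markers in the results below was not tested. In whole liver, fewer cells of a type and less RNA per cell cannot be told apart.

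Promoter sequences are shown for genes in which the DNA motif bound by STAT5 dimers, TTCNNNGAA, or the motif ATCGAT, bound by CUT-domain factors such as CUX and ONECUT proteins, was found. RefSeq windows on GRCm38.p6, from 250 bases before to 50 bases after a start site, were found for 9 of the 10 genes, 16 windows in all; Socs2 had no entry. TTCNNNGAA, which reads the same on both strands, occurred in 4 of the 16 windows, from Bcl6, Cish and Prlr. Over all 32851 mouse windows, 8.3% held at least 1 match, 0.457% at least 2 and 0.0335% at least 3. The Bcl6 window that starts further downstream held 3 matches, at -168, -122 and -88 from its start site, and the other Bcl6 window held 1, at -118. The single Cish window held 2 matches, the first beginning at the start site itself and the second at position 12. ATCGAT was found in 1 of the 16 windows, from Cux2 at -72, against 0.925% of all windows, and ATTGAT, on either strand, was found in none of the 16, against 7.54% of all. These are letter matches in a reference sequence, and binding was not measured. Matches are in capitals in the stretches below, each written along the strand of the gene.
Bcl6, chr16:23981344-23981473, minus strand: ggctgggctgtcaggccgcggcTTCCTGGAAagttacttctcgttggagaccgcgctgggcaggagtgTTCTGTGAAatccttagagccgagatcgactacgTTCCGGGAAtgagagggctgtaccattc
Cish, chr9:107296589-107296683, plus strand: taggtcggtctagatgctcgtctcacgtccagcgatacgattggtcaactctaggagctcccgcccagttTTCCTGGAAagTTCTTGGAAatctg
Prlr, chr15:10223746-10223845, plus strand: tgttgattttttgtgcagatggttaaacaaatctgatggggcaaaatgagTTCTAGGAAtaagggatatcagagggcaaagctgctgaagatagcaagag
Cux2, chr5:122047846-122047955, minus strand: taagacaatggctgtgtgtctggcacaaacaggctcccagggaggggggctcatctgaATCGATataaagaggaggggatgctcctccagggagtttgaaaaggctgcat

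In the knockout liver both receptor genes were lower at every time, the inhibitor gene Socs2 and the transcription factor gene Cux2 were higher at every time, and Stat5b was higher at ZT12 and ZT16. At ZT8, 4 of the 10 genes were called, against 35.5% of all genes, and without control ZT8 replicate 1 the count was 7. At ZT12, 6 of the 10 were called, against 42.3%, and at ZT16, 5 of the 10, against 40.0%. Ghr, Prlr, Socs2 and Cux2, 4 of the 10, were called at all 3 times with the same sign, against 19.5% of all genes. The 10 members were chosen with earlier results of these data known. Their counts and sizes, here and below, are therefore not an independent comparison with all genes. Control and knockout livers were fully separate in 4, 4 and 3 of the 10 genes at ZT8, ZT12 and ZT16, against 15.5%, 21.4% and 19.2% of all genes. A change of at least 2-fold that was also called was found for 3, 3 and 4 of the 10 members at ZT8, ZT12 and ZT16. The same rule called 6.13%, 7.27% and 6.99% of all genes. The median size of the difference over the members was 1.46, 0.59 and 0.96, and over all genes 0.25, 0.29 and 0.28.

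**Figure D1:**
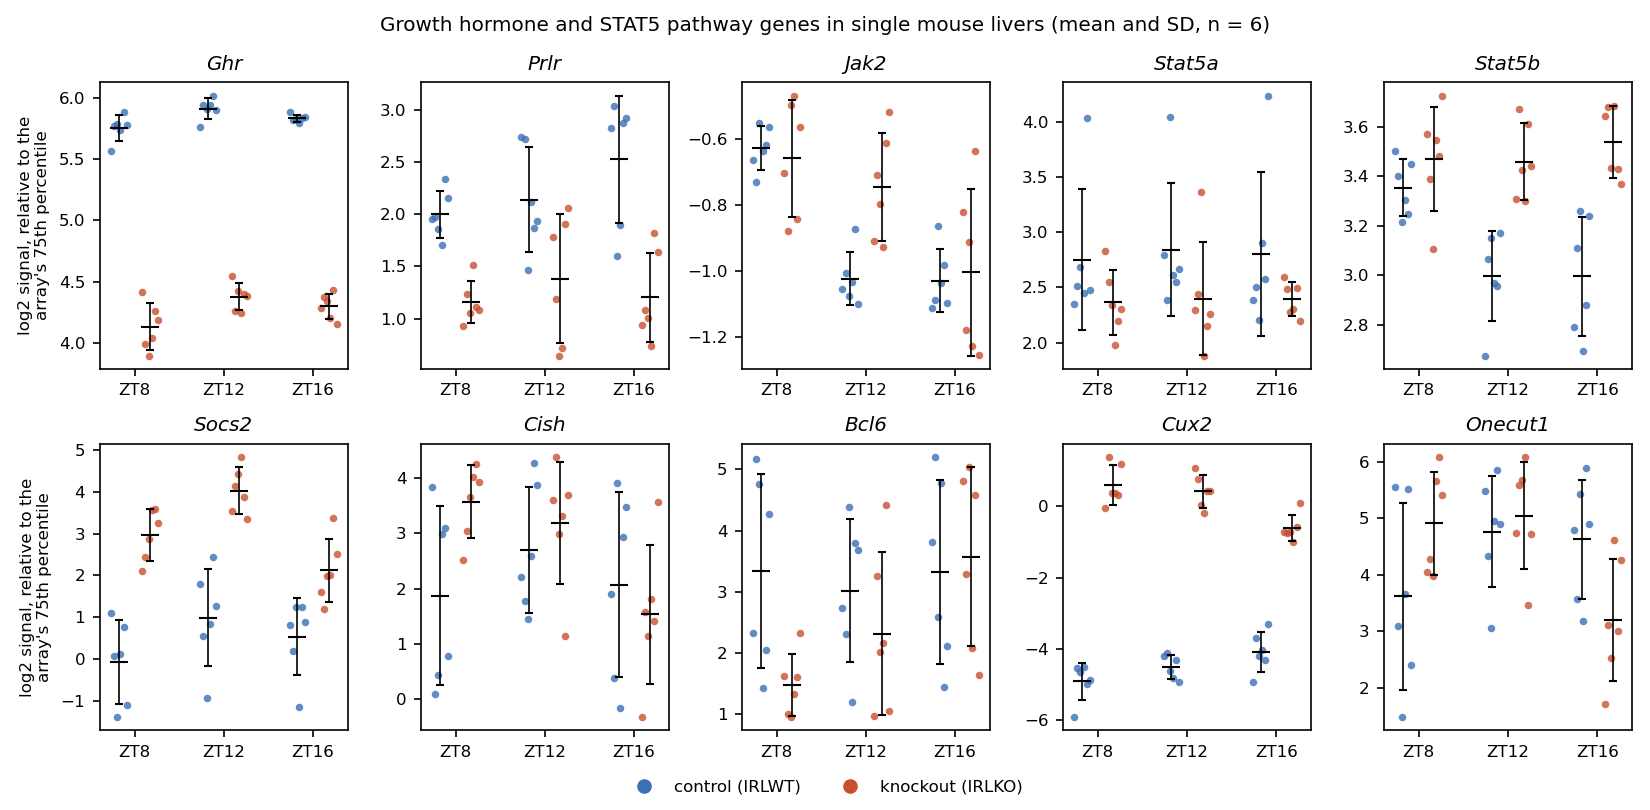
Each panel plots 1 gene, with 1 point per liver, as log2 signal relative to the array's 75th percentile against Zeitgeber time; black bars give the mean and SD of 6 mice, blue is control and red is knockout. Ghr and Cux2 separate the genotypes completely at each time, and Cish, Bcl6 and Onecut1 spread over several log2 units within a group.

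Ghr encodes the growth hormone receptor. In control livers at ZT8 its signal ran from 5.57 to 5.89 with a median of 5.78, and in knockouts from 3.89 to 4.41 with a median of 4.11. At ZT12 controls ran from 5.76 to 6.02 (median 5.92) and knockouts from 4.25 to 4.55 (median 4.39). At ZT16 controls ran from 5.79 to 5.88 (median 5.83) and knockouts from 4.15 to 4.43 (median 4.31). The genotypes did not overlap at any time, and the lowest control lay over 1 log2 unit above the highest knockout throughout. The fitted difference was -1.63 ± 0.07 (SE) at ZT8, -1.54 ± 0.07 at ZT12 and -1.53 ± 0.07 at ZT16, that is 3.09-, 2.90- and 2.89-fold lower, with adjusted p of 4.4e-16 or smaller. Within the 3 wash batches the ZT8 difference ranged from -1.89 to -1.42. All 4 Ghr probes, at chr15:3268107-3295379 on mm9, gave non-overlapping groups at every time, with differences from -1.70 to -1.1. The change of the genotype effect from ZT8 to ZT16 was 0.10 (95% confidence interval -0.12 to 0.31, adjusted p = 0.66). In knockouts Ghr rose by 0.25 ± 0.07 from ZT8 to ZT12 (adjusted p = 0.023), a step called for 13.2% of all genes. Of the 4 Ghr probes 1 went the other way, with knockout means of 1.76 at ZT8 and 1.17 at ZT12.

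Prlr encodes the prolactin receptor, a relative of the growth hormone receptor that signals through the same kinase. Control livers ran from 1.70 to 2.34 (median 1.97) at ZT8, and knockouts from 0.93 to 1.51 (median 1.1), without overlap. By ZT12 controls ran from 1.47 to 2.74 (median 2.02) and knockouts from 0.65 to 2.06 (median 1.49). By ZT16 controls ran from 1.60 to 3.03 (median 2.85) and knockouts from 0.74 to 1.82 (median 1.05), with overlap at both later times. Prlr fell by 0.88 ± 0.26 (SE) at ZT8, by 0.72 ± 0.26 at ZT12 and by 1.33 ± 0.26 at ZT16 on the log2 scale, with adjusted p of 0.009, 0.026 and 0.00015. All 3 Prlr probes were lower at each time. The ZT12 call rested on few arrays: without control replicate 1 or 2, or knockout replicate 3 or 4, of ZT12 the difference was -0.62 to -0.53 with adjusted p of 0.066 to 0.1. Within wash batches it ranged from -1.22 to -0.26, and with only the ZT12 arrays in the fit it was -0.65 (adjusted p = 0.11).

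Jak2 encodes the kinase of the receptor complex. The genotypes overlapped at ZT8, with controls from -0.73 to -0.55 (median -0.63) and knockouts from -0.88 to -0.47 (median -0.63). Controls at ZT12 ran from -1.10 to -0.87 (median -1.04) and knockouts from -0.93 to -0.52 (median -0.75). Controls at ZT16 ran from -1.11 to -0.86 (median -1.06) and knockouts from -1.25 to -0.64 (median -1.04). The differences were -0.02 ± 0.09 (SE), 0.27 ± 0.09 and 0.04 ± 0.09, and ZT12 alone was called (adjusted p = 0.017). Without knockout ZT12 replicate 6 that difference was 0.21 (adjusted p = 0.068), and for the mean of both Jak2 probes it was 0.18 (adjusted p = 0.1). The second Jak2 probe differed at ZT8 (0.39, adjusted p = 0.039 over all probes) and not at ZT12 (0.10, adjusted p = 0.64), so the probes disagreed on the time. A dependence of the Jak2 effect on time was not called (adjusted p = 0.28, F test).

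Stat5a encodes the STAT5 protein that is less abundant in liver than STAT5B, and its probes disagreed. The brighter probe ran from 2.35 to 4.03 (median 2.49) in controls at ZT8 and from 1.98 to 2.83 (median 2.32) in knockouts. Its differences of -0.38 ± 0.29 (SE), -0.45 ± 0.29 and -0.48 ± 0.29 were not called (adjusted p = 0.33, 0.21 and 0.19). In each control group 1 liver lay far above the other 5: replicate 5 at ZT8 with 4.03, replicate 3 at ZT12 with 4.05 and replicate 6 at ZT16 with 4.24, against 2.90 or less in the others. Without that control liver the difference was -0.15, -0.14 and -0.20 (adjusted p = 0.72, 0.69 and 0.6). Knockout ZT12 replicate 3 was high too, at 3.36 against a median of 2.28 in its group. It was kept in every fit here that left out a high control liver. The ZT12 values of those fits therefore come from an exclusion among controls only, and a fit without both livers was not run. The second probe, at chr11:100746373-100746432 on mm9, treated these 3 livers differently. It read 2.02 in the ZT16 liver (others 1.03 to 1.45) and 1.21 in the ZT12 liver (others 0.73 to 1.17), the highest of their groups, and 0.55 in the ZT8 liver, the lowest of its group. It ran from 0.73 to 1.21 in controls and from -0.14 to 0.50 in knockouts at ZT12, without overlap, a difference of -0.75 ± 0.13 (adjusted p = 3.4e-05 over all probes). Its difference was -0.43 ± 0.13 at ZT16 (adjusted p = 0.0095) and -0.16 ± 0.13 at ZT8 (adjusted p = 0.36). Without the high control liver of the time its ZT12 difference was -0.68 (adjusted p = 0.00023) and its ZT16 difference was -0.27 and not called (adjusted p = 0.06). With the mean of both probes and all livers Stat5a was called lower, with -0.60 (adjusted p = 0.0073) for ZT12 and -0.45 (adjusted p = 0.041) for ZT16. Without the high control liver these were -0.41 (adjusted p = 0.041) and -0.23, the latter not called (adjusted p = 0.24).

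Stat5b encodes the main STAT5 of hepatocytes. At ZT8 controls ran from 3.22 to 3.50 (median 3.35) and knockouts from 3.10 to 3.73 (median 3.51). At ZT12 controls ran from 2.67 to 3.17 (median 3.02) and knockouts from 3.30 to 3.67 (median 3.43). At ZT16 controls ran from 2.69 to 3.26 (median 2.99) and knockouts from 3.37 to 3.68 (median 3.54). The genotypes overlapped at ZT8 and did not overlap at ZT12 or ZT16. The difference was 0.11 ± 0.10 (SE, adjusted p = 0.41), 0.47 ± 0.10 (adjusted p = 0.00039) and 0.57 ± 0.10 (adjusted p = 3.6e-05), the last 1.48-fold higher. The later times came with a lower control level: controls fell by 0.38 ± 0.10 from ZT8 to ZT16 (adjusted p = 0.0041), and knockouts changed by 0.07 (adjusted p = 0.66). The genotype effect grew by 0.46 ± 0.14 between those times (adjusted p = 0.036), though the F test over the 3 times was not called (adjusted p = 0.077). This growth lost its call (adjusted p of 0.051 to 0.081) without any 1 of 12 arrays: control replicates 1, 2 and 6 of ZT8 and 1, 4 and 5 of ZT16, and knockout replicates 2, 3 and 5 of ZT8 and 1, 2 and 4 of ZT16. It was 0.46 with adjusted p = 0.07 without the filter on dim probes and 0.43 with adjusted p = 0.065 without the wash batch term. Within wash batches the ZT16 difference ranged from 0.16 to 0.79, and the 0.16 is from batch 1, with its single control array of that time. With the mean of both Stat5b probes the control fall was -0.25 (adjusted p = 0.17) and the knockout change was 0.42 (adjusted p = 0.015). A dimmer second probe was called higher as well at ZT12 (0.96 ± 0.22) and ZT16 (0.77 ± 0.22).

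**Figure D2:**
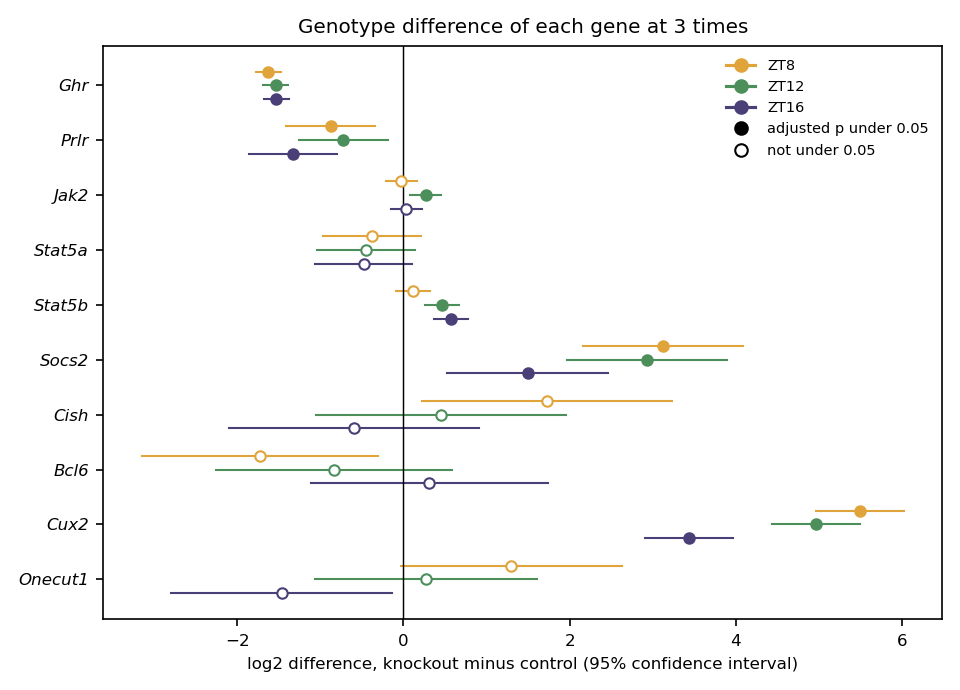
Points give the log2 difference, knockout minus control, of each gene at 3 times, with 95% confidence intervals from the fit over 36 arrays; filled points have an adjusted p under 0.05. The intervals of Cish, Bcl6 and Onecut1 are several log2 units wide, and their points move in opposite senses from ZT8 to ZT16 for Bcl6 against Cish and Onecut1.

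Socs2 encodes a suppressor of cytokine signalling that restrains growth hormone receptor signals. At ZT8 controls ran from -1.38 to 1.1 (median 0.10) and knockouts from 2.10 to 3.59 (median 3.06). By ZT12 controls ran from -0.93 to 2.44 (median 1.05) and knockouts from 3.34 to 4.83 (median 4.00). By ZT16 controls ran from -1.14 to 1.24 (median 0.85) and knockouts from 1.20 to 3.38 (median 2.01). The groups were separate at ZT8 and ZT12 and overlapped slightly at ZT16, where the lowest knockout lay just below the highest control. Socs2 was 8.73-fold higher in knockouts at ZT8 (3.13 ± 0.47, SE), 7.62-fold at ZT12 (2.93 ± 0.47) and 2.82-fold at ZT16 (1.50 ± 0.47), with adjusted p of 5e-06, 9.8e-06 and 0.012. A second probe well above background on all 18 control arrays gave 3.03, 3.04 and 1.59. The other 2 Socs2 probes were higher at each time too, but were dim in controls, well above background on 14 and 5 of 18 control arrays, so the sizes of their differences are uncertain. Within wash batches the ZT8 difference ranged from 2.23 to 3.73 and the ZT16 difference from 1.37 to 1.51. In knockouts Socs2 fell by 1.81 ± 0.47 from ZT12 to ZT16 (adjusted p = 0.0093), a step called for 12.6% of all genes. The change of the genotype effect from ZT8 to ZT16, -1.63, was not called (95% confidence interval -3.00 to -0.26, adjusted p = 0.13).

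Cish, the other feedback inhibitor gene of the pathway, was not called at any time. At ZT8 controls ran from 0.09 to 3.84 (median 1.89) and knockouts from 2.51 to 4.24 (median 3.78). Controls at ZT12 ran from 1.46 to 4.27 (median 2.40) and knockouts from 1.14 to 4.38 (median 3.46). Controls at ZT16 ran from -0.17 to 3.90 (median 2.42) and knockouts from -0.32 to 3.57 (median 1.49). The groups overlapped at every time, and livers of a group spread over 1.73 to 4.07 log2 units. The differences were 1.73 ± 0.74 (SE), 0.45 ± 0.74 and -0.59 ± 0.74, with adjusted p of 0.068, 0.66 and 0.55, none of them called. Without control ZT8 replicate 1 or 4 the ZT8 difference was 2.03 to 2.11 and was called (adjusted p of 0.028 to 0.046).

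Cux2 encodes a CUT homeodomain factor that female mouse liver expresses far more than male liver. In controls it was near the detection limit: 2, 5 and 5 of 6 arrays at ZT8, ZT12 and ZT16 were well above background, and all 18 knockout arrays were. At ZT8 controls ran from -5.92 to -4.51 (median -4.77) and knockouts from -0.05 to 1.40 (median 0.38). At ZT12 controls ran from -4.93 to -4.11 (median -4.48) and knockouts from -0.18 to 1.09 (median 0.44). At ZT16 controls ran from -4.94 to -3.30 (median -4.13) and knockouts from -0.99 to 0.10 (median -0.71). No control liver reached the level of any knockout liver. The difference was 5.50 ± 0.26 (SE) at ZT8, 4.96 ± 0.26 at ZT12 and 3.44 ± 0.26 at ZT16, with adjusted p of 7.6e-12 or smaller. These sizes depend on how dim signals are treated: with normexp background correction they were 3.04, 2.79 and 1.76, with adjusted p of 5.9e-10 or smaller. Within wash batch 1 alone, with its single control array of ZT16, the ZT16 difference was 2.99. The other 2 Cux2 probes were well above background on 7 and 3 of 18 control arrays, so the sizes of their differences (3.45 to 6.36) are uncertain. The dimmer of them was not well above background on any control array at ZT8, so control signals below a floor were raised to it. The floor was the lowest signal of any spot well above background on that array, and knockouts were then 24.0-fold higher. A control reading of -4.43 for this probe was not well above background, so this is not a strict lower bound.

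The Cux2 effect shrank from ZT8 to ZT16 by 2.06 ± 0.37 (SE, adjusted p = 0.00037), and Cux2 was the 1 member called in the F test of genotype by time (adjusted p = 0.00089), which called 8.46% of all genes. Without control ZT16 replicate 3 or 6 that test called 2 members. With normexp background correction the effect shrank by 1.28 ± 0.24 (adjusted p = 0.00059). In knockouts Cux2 fell by 1.19 ± 0.26 from ZT8 to ZT16 (adjusted p = 0.00062). The control rise of 0.87 ± 0.26 over the same interval (adjusted p = 0.011) lay near background and was 0.23 (adjusted p = 0.38) with normexp.

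Bcl6 encodes a transcriptional repressor of STAT5 target genes that male liver expresses more than female liver. At ZT8 controls ran from 1.43 to 5.17 (median 3.30) and knockouts from 0.95 to 2.32 (median 1.47). By ZT12 controls ran from 1.19 to 4.38 (median 3.21) and knockouts from 0.97 to 4.42 (median 2.09). By ZT16 controls ran from 1.45 to 5.21 (median 3.20) and knockouts from 1.64 to 5.04 (median 3.93). Knockout livers at ZT8 were the group with no high Bcl6 value, and the other 5 groups each held livers above 4. The differences were -1.73 ± 0.70 (SE), -0.84 ± 0.70 and 0.31 ± 0.70, with adjusted p of 0.053, 0.35 and 0.75. The ZT8 value lay at the threshold: 6 of 13 other settings called it, with adjusted p of 0.021 to 0.048, and so did leaving out any 1 of 11 arrays, with differences of -2.14 to -1.70. These were control replicates 1, 4 and 5 of ZT8 and 2 and 5 of ZT16, and knockout replicates 6 of ZT8, 5 and 6 of ZT12 and 3, 4 and 6 of ZT16. The other 7 settings did not call the ZT8 difference, with adjusted p up to 0.13. Nor did leaving out any 1 of the other 25 arrays, where the difference was as small as -1.22. A second Bcl6 probe gave -1.52 ± 1.05 at ZT8 (adjusted p = 0.28 over all probes). In knockouts Bcl6 rose by 1.97 ± 0.70 from ZT8 to ZT16 (adjusted p = 0.032), 3.91-fold. Without knockout ZT8 replicate 2 or 5, or ZT16 replicate 1, 3 or 5, this rise was 1.53 to 1.95 and not called (adjusted p of 0.054 to 0.11), and without the filter on dim probes its adjusted p was 0.053.

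Onecut1 encodes hepatocyte nuclear factor 6, a CUT-domain factor related to Cux2. At ZT8 controls ran from 1.49 to 5.55 (median 3.38) and knockouts from 3.98 to 6.09 (median 4.84). Controls at ZT12 ran from 3.07 to 5.85 (median 4.93) and knockouts from 3.46 to 6.08 (median 5.17). Controls at ZT16 ran from 3.18 to 5.90 (median 4.85) and knockouts from 1.72 to 4.61 (median 3.06). The groups overlapped at every time. The differences were 1.30 ± 0.65 (SE), 0.27 ± 0.65 and -1.47 ± 0.65, with adjusted p of 0.12, 0.77 and 0.073. The ZT8 difference was 1.69 and called without control ZT8 replicate 1 (adjusted p = 0.042), and the ZT16 difference was -1.82 to -1.74 and called without replicate 4 of either ZT16 group (adjusted p of 0.035 to 0.043). The effect fell by 2.76 ± 0.93 from ZT8 to ZT16 with an adjusted p of 0.055, which was 0.046 with replicate number as a block. This adjusted p was 0.024 to 0.049 without any 1 of 9 arrays: control replicates 1 and 5 of ZT8, 3 of ZT12 and 2 and 4 of ZT16, and knockout replicates 3 of ZT8, 5 of ZT12 and 4 and 6 of ZT16. It was 0.047 in the authors' table, 0.041 with the filter on all 36 arrays and 0.014 with array weights. Of 12 other settings, 8 left the change uncalled, with adjusted p up to 0.092. The F test of genotype by time was not called for Onecut1 (adjusted p = 0.13).

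Over the 3 times, control livers had 3 members called in the F test (Jak2, Stat5b and Cux2), against 25.1% of all genes. Knockout livers had 5 members called (Ghr, Jak2, Socs2, Cux2 and Onecut1), against 30.1%, and 3 without knockout ZT8 replicate 4 or ZT12 replicate 3. From ZT8 to ZT16, 3 members were called in controls (26.6% of all genes) and 5 in knockouts (28.9%). The genotype effect changed over that interval for 2 members, Stat5b and Cux2 (9.75%). Jak2 fell by 0.41 ± 0.09 (SE) in controls (adjusted p = 0.00082) and by 0.35 ± 0.09 in knockouts (adjusted p = 0.0031), a decline common to both genotypes. In knockouts Cish fell by 2.07 ± 0.74 (adjusted p = 0.034) and Onecut1 by 1.71 ± 0.65 (adjusted p = 0.047) over the interval in which Bcl6 rose. The Cish fall was -2.04 to -1.70 with adjusted p of 0.052 to 0.096 without knockout replicate 4, 5 or 6 of ZT8 or 1, 3 or 5 of ZT16. It was -2.07 (adjusted p = 0.055) without the filter on dim probes and, with a fixed slide block, -2.14 (adjusted p = 0.05). The Onecut1 fall was not called (adjusted p of 0.05 to 0.14) without any 1 of 22 of the 36 arrays. These were control replicates 2, 4 and 6 of ZT8, 1, 2, 4 and 6 of ZT12 and 1, 2, 3 and 6 of ZT16, and knockout replicates 4, 5 and 6 of ZT8, 1, 2, 3 and 6 of ZT12 and 1, 2, 3 and 5 of ZT16. It was also not called with quantile scaling (-1.63, adjusted p = 0.059), without the dim-probe filter (-1.71, adjusted p = 0.077) or with a fixed slide block (-1.61, adjusted p = 0.13).

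Cish, Bcl6, Onecut1 and Socs2 varied more between mice of the same group than nearly all other genes. The SD within groups was 1.31 for Bcl6, 1.28 for Cish, 1.13 for Onecut1 and 0.86 for Socs2, larger than in 99.6%, 99.5%, 99.2% and 97.3% of the 22895 genes. The median gene had a SD of 0.25. Ghr had a SD of 0.11, and 6.63% of genes had a smaller one. Bcl6 at ZT8 spread over 3.74 log2 units in controls and 1.37 in knockouts (exact permutation test of absolute deviations, two-sided p = 0.0022). Adjusted over the 30 tests of 10 genes at 3 times this was 0.065, so a difference of spread was not called for any member.

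The variation was shared between these genes, mouse by mouse. In the 6 control livers at ZT8, replicates 1 to 6, Bcl6 was 2.32, 5.17, 4.76, 1.43, 2.05 and 4.27. Cish in the same livers was 3.84, 0.09, 0.44, 2.99, 3.09 and 0.79. Onecut1 was 5.55, 3.10, 1.49, 3.66, 5.52 and 2.41. Each of the 3 livers with Bcl6 above 4 had Cish below 1, and each of the other 3 had Cish above 2. Socs2 was 1.1, 0.08, -1.38, 0.13, 0.78 and -1.09, lowest in 2 of the livers with high Bcl6.

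Correlations were computed over the deviations of the 36 livers from their group means, for all 45 pairs of members. These pairs were examined after the values had been seen. Permutation p-values came from 100000 shuffles within groups, two-sided, and 5 pairs had a Benjamini-Hochberg value under 0.05 over the 45 pairs. Cish and Onecut1 rose and fell together, with Pearson's r = 0.80 and Spearman's rho = 0.80 (permutation p = 1e-05 for each, the smallest possible here, adjusted 0.00022). Socs2 and Onecut1 gave r = 0.79 and rho = 0.81 (permutation p = 1e-05 for each, adjusted 0.00022). Socs2 and Cish gave r = 0.65 (permutation p = 0.00016, adjusted 0.0024) and rho = 0.65 (p = 0.00025, adjusted 0.0037). Such relations were not confined to the members. Of 17791 genes ranked by r, Arid5b, which is not a member, came closest to Cish (r = 0.865) and to Onecut1 (r = 0.818).

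Bcl6 ran opposite to Cish and Onecut1. For Cish and Bcl6, r was -0.66 (permutation p = 0.0005, adjusted 0.0056) and rho -0.65 (p = 0.00049, adjusted 0.0055). For Bcl6 and Onecut1, r was -0.60 (permutation p = 0.00076, adjusted 0.0068) and rho -0.60 (p = 0.00084, adjusted 0.0076). Socs2 and Bcl6 gave a weaker r of -0.29 (permutation p = 0.13, adjusted 0.63) and rho of -0.28 (p = 0.13, adjusted 0.73). For that pair r was -0.515 in the 18 controls and 0.135 in the 18 knockouts. Without the 2 livers farthest from the median of the first gene of each pair, r was 0.77 for Cish and Onecut1, 0.76 for Socs2 and Onecut1, 0.59 for Socs2 and Cish, -0.60 for Cish and Bcl6, and -0.55 for Bcl6 and Onecut1.

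The 5 relations had the same sign in each genotype and each wash batch. For Cish and Onecut1, r was 0.83 in the 18 controls and 0.76 in the 18 knockouts, and 0.58, 0.91 and 0.78 in wash batches 1, 2 and 3. Socs2 and Onecut1 gave 0.92 among control and 0.55 among knockout livers, and 0.81, 0.83 and 0.80 by batch. Cish and Bcl6 gave -0.68 among control and -0.62 among knockout livers, and -0.77, -0.80 and -0.66 by batch. For Bcl6 and Onecut1 it was -0.68 and -0.48, and -0.51, -0.84 and -0.65 by batch. Socs2 and Cish were less even, with 0.78 in controls, 0.35 in knockouts, and 0.30, 0.71 and 0.76 by batch. Whether the relations differ between genotypes was not tested. Within single groups of 6, r ran from 0.69 to 0.90 for Cish and Onecut1 and from 0.24 to 0.985 for Socs2 and Onecut1. For Socs2 and Cish it ran from -0.03 to 0.98, for Cish and Bcl6 from -0.94 to 0.22 and for Bcl6 and Onecut1 from -0.92 to 0.49, so these 3 relations did not have 1 sign in every group. Without knockout ZT8 replicate 3, r over all groups was 0.81 for Cish and Onecut1, 0.80 for Socs2 and Onecut1, 0.65 for Socs2 and Cish, -0.66 for Cish and Bcl6 and -0.62 for Bcl6 and Onecut1. No pair with Ghr, Prlr, Jak2, Stat5a, Stat5b or Cux2 passed the correction, and the highest of these was Prlr with Cux2 (r = 0.34, permutation p = 0.058, adjusted 0.43; rho = 0.38, permutation p = 0.031, adjusted 0.23).

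**Figure D3:**
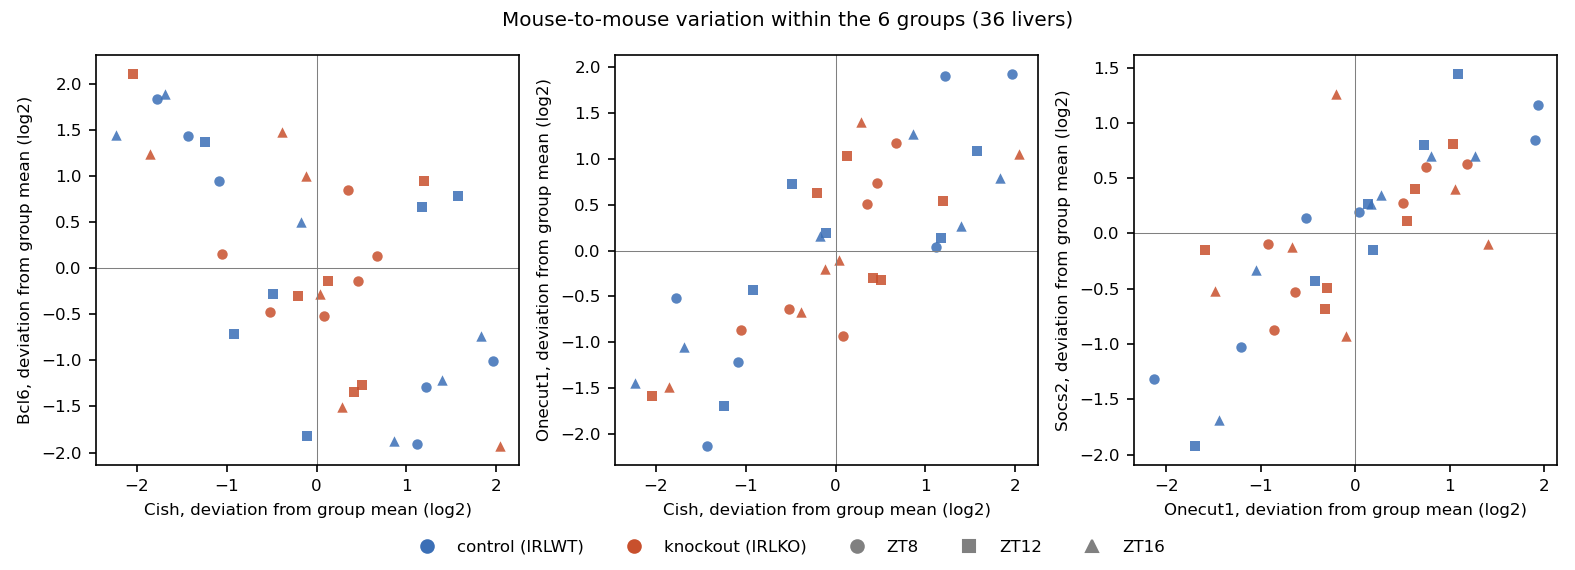
Each point is 1 of 36 livers, plotted by its deviation from the mean of its own group in log2 units; colour gives genotype and shape gives time. Cish against Bcl6 slopes down (r = -0.66), and Cish against Onecut1 (r = 0.80) and Onecut1 against Socs2 (r = 0.79) slope up over the 36 livers.

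All probes of the members were also tested singly. Of the 25 probes, 15 were called at ZT8 (8 higher and 7 lower), 18 at ZT12 (10 higher and 8 lower) and 18 at ZT16 (9 higher and 9 lower), against 33.7%, 39.3% and 37.9% of all probes. Probes of a gene share their gene and are not independent replicates, and by the array design several target different transcripts of it. Of these probes 1 of Socs2 and 1 of Cux2 were well above background on 5 and 3 of 18 control arrays and on all 18 knockout arrays, so they passed the filter through knockouts only. Without these 2, 13, 16 and 16 of 23 probes were called (6, 8 and 7 higher and 7, 8 and 9 lower). The 4 probes of Ghr, 3 of Prlr, 4 of Socs2 and 3 of Cux2 each moved 1 way at all times. The second Onecut1 probe was called lower at ZT16 (-1.24 ± 0.49, SE, adjusted p = 0.047 over all probes; exact permutation p = 0.024).

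**Figure D4:**
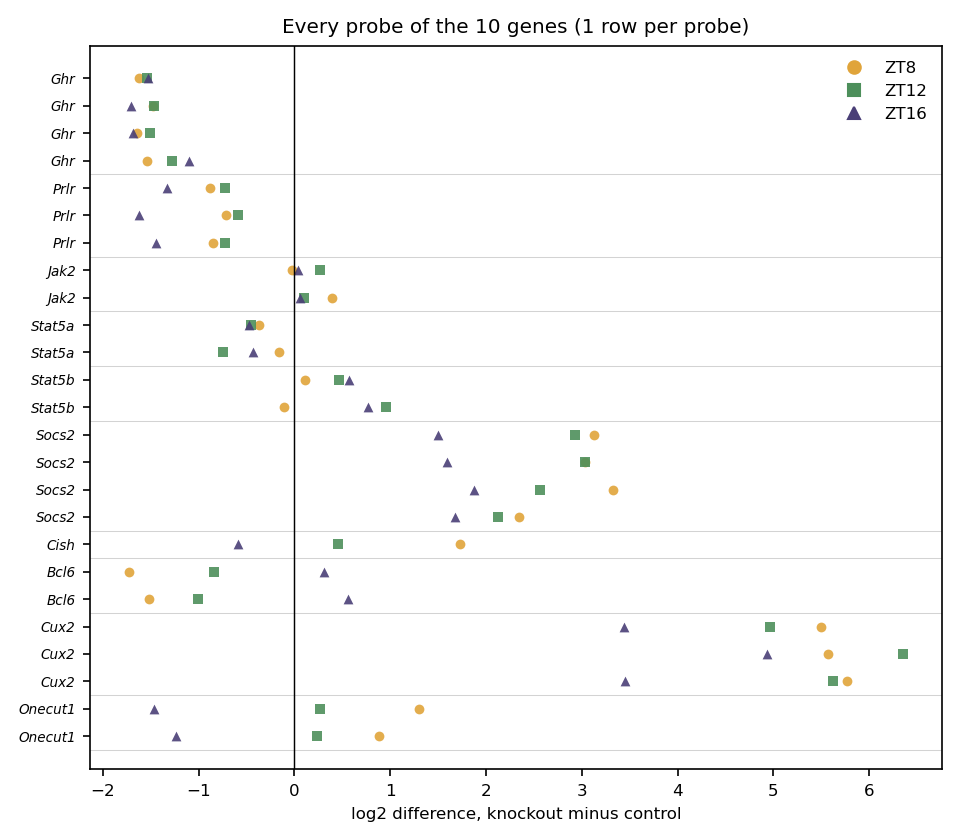
Each row is 1 of the 25 probes, grouped by gene, with the log2 difference, knockout minus control, at ZT8, ZT12 and ZT16. Probes of Ghr, Prlr, Socs2 and Cux2 lie on 1 side of 0 throughout, and the Cish, Bcl6 and Onecut1 probes cross 0 between ZT8 and ZT16.

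The genes of related receptors, kinases and STATs outside the 10 moved upward where they were called. Of 13 such genes, 6, 8 and 6 were called at ZT8, ZT12 and ZT16, all higher, against 16.7%, 19.6% and 20.0% of all genes called higher. The median difference over the 13 was 0.33, 0.38 and 0.38, against 0.01, -0.02 and 0.00 over all genes. The 13, like the lists below, were chosen with earlier results of these data known, so the counts are not an independent comparison. Lepr, the leptin receptor gene, averaged 1.73 ± 0.19 (SD, n = 6) in controls and 3.92 ± 0.12 (SD, n = 6) in knockouts at ZT8, and was higher by 2.17, 2.28 and 2.26 at the 3 times (adjusted p of 1.2e-12 or smaller). Stat3, the interleukin-6 and leptin pathway STAT, was higher by 0.52, 0.56 and 0.68 (adjusted p of 8.4e-05 or smaller). Il6st, the shared signalling receptor of the interleukin-6 family, was higher by 0.76 (adjusted p = 9e-08) at ZT12 and 0.52 (adjusted p = 3.4e-05) at ZT16, and differed by 0.05 at ZT8 (adjusted p = 0.73).

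Of 17 other negative regulators (SOCS, PIAS, SH2B adaptor and phosphatase genes), 4, 6 and 2 were called higher, against 16.7%, 19.6% and 20.0% of all genes, and 2, 2 and 2 lower, against 18.7%, 22.7% and 20.0%. The list median was 0.14, 0.12 and 0.07. Socs3, which restrains STAT3 signals, was higher by 1.58, 1.10 and 1.41 (adjusted p of 0.0025 or smaller). Pias3, an inhibitor of STAT3, had differences of -0.87, -0.58 and -0.52 (adjusted p of 0.0029 or smaller). Sh2b1, an adaptor that binds JAK2, was higher by 0.28 (adjusted p = 0.00029) at ZT12 and by 0.16 (adjusted p = 0.029) at ZT16. Of the paralogs, Cux1 was lower at each time (-0.40, -0.55 and -0.42) and Bcl6b higher (0.60, 0.37 and 0.58). Onecut2 was lower at ZT16 (-0.54, adjusted p = 0.00016).

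Transcripts of the secreted pathway products Igf1 and Igfals were lower. Igf1, the growth factor that liver makes in response to growth hormone, averaged 6.68 ± 0.10 (SD, n = 6) in controls and 6.14 ± 0.12 (SD, n = 6) in knockouts at ZT8. Its difference was -0.55, -0.31 and -0.72 at the 3 times (adjusted p of 0.0013 or smaller). Igfals, whose protein holds IGF1 in a circulating complex, differed by -1.65, -1.82 and -2.39 (adjusted p of 1.9e-07 or smaller). Egfr, a growth hormone-dependent receptor gene, differed by 0.30, 0.78 and 0.78 and was not called (adjusted p = 0.5, 0.051 and 0.053).

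Genes with a known sex bias in mouse liver, which depend on the growth hormone pattern, were measured in the same male livers, where male-biased genes were lower and many female-biased genes higher in knockouts. The 2 lists were chosen with earlier results of these data known, so their counts are not an independent comparison with all genes. The paralogs Cyp4a12a and Cyp4a12b, at -7.79 and -8.04 at ZT8, were counted separately. Each was well above background on all 18 control arrays and on 12 of 18 knockout arrays, so the sizes of these differences are uncertain. Of 16 male-biased genes tested, 14, 13 and 12 were called lower at ZT8, ZT12 and ZT16 and none higher, against 18.7%, 22.7% and 20.0% of all genes called lower. Their median difference was -2.43, -2.26 and -1.75. Nudt7, a peroxisomal nucleotide hydrolase gene, had differences of -2.44, -2.63 and -2.62, Cyp2d9 of -2.58, -2.47 and -1.83, and C6, a complement component gene, of -2.41, -2.05 and -1.66 (adjusted p of 3.6e-05 or smaller for each). Of 18 female-biased genes tested, Sult2a1, a sulfotransferase gene, was well above background on 3 of 18 control and 15 of 18 knockout arrays and so passed the filter through knockouts only, and it is left out of the counts that follow. Of the other 17, 14, 8 and 3 were called higher, against 16.7%, 19.6% and 20.0% of all genes, and at ZT12 and ZT16 1 was called lower. Their median difference was 2.02, 0.58 and 0.26, and over all 18 genes it was 2.03, 1.20 and 0.20. The change of the effect from ZT8 to ZT16 was called for 6 of the 17, all downward, against 4.31% of all genes.

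The shrinking female-biased response came with rising control levels in some genes. Fmo2, a flavin monooxygenase gene, averaged -0.98 ± 0.30 (SD, n = 6) in controls at ZT8 and 0.96 ± 0.44 (SD, n = 6) at ZT16, and 1.65 ± 0.54 (SD, n = 6) and 1.47 ± 0.18 (SD, n = 6) in knockouts. Its difference was 2.62 at ZT8 (adjusted p = 4.6e-10), 1.81 at ZT12 and 0.51 at ZT16 (adjusted p = 0.08). From ZT8 to ZT16, 5 of the 17 were called higher in controls, against 13.4% of all genes, and 2 lower in knockouts, also against 13.4%. Atp6v0d2, a proton pump subunit gene, kept its rise, with differences of 1.89, 2.02 and 2.96 (adjusted p of 4.7e-06 or smaller). Cyp2a4 went the other way, with 0.22 (adjusted p = 0.49), -0.76 (adjusted p = 0.0097) and -1.70 (adjusted p = 9.7e-07). Probes of paralogous Cyp and Sult genes can bind related transcripts, and how far they did was not tested.

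**Figure D5:**
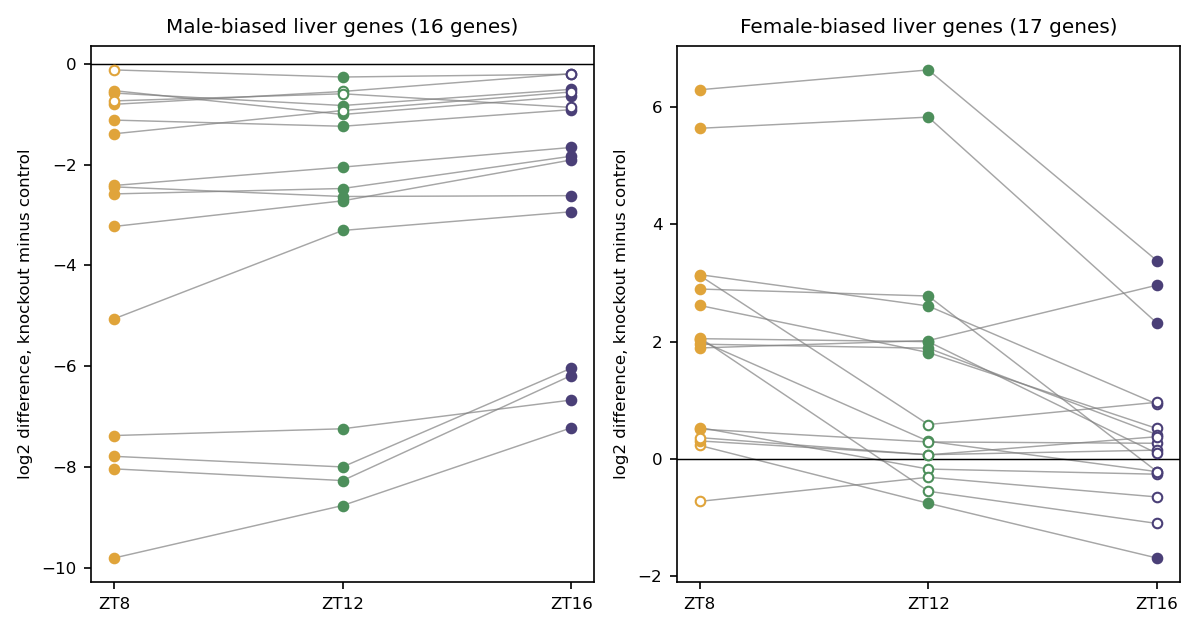
Each line is 1 gene of the male-biased (left, 16 genes) or female-biased (right, 17 genes, without Sult2a1) list, with its log2 difference, knockout minus control, against Zeitgeber time; filled points have an adjusted p under 0.05. Male-biased genes lie below 0 at each time, and the median of the female-biased genes comes down from 2.02 at ZT8 to 0.26 at ZT16.

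Genes whose 6 group means most resembled those of a member were listed for the 7 members whose group means spanned at least 1 log2 unit. Likeness was the root mean square difference over 6 groups after centring, among genes well above background on all 36 arrays, and only hits with a gene symbol are named. Closest to Ghr was Fdps (0.05), an enzyme gene of sterol synthesis, which differed by -1.61, -1.54 and -1.49. Closest to Cux2 was Ntf3 (0.15), a neurotrophin gene, with differences of 5.17, 4.75 and 3.72, followed by Tuba8 (0.57) and Igfbp1 (0.75). Prlr was closest to Mobp (0.07), Socs2 to Gadd45g (0.44) and Pip5k1a (0.47), and Cish to Slc25a30 (0.22) and Dsg1c (0.28). Bcl6 was closest to Tert (0.21) and Mical2 (0.24), and Onecut1 to Lpin1 (0.27) and Lonrf1 (0.28).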

How the data were processed

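Scanner files of 36 single-colour Agilent SurePrint G3 Mouse GE v2 arrays were deposited; per the file headers they hold each spot's intensity from Feature Extraction, processed signal, mean and background signal and flags (other units), and per the submitters' processing notes the software was Agilent Feature Extraction 10.10.1.1, with limma. The authors' log2 value table holds 32801 probes, and its columns share 1 set of sorted values, as after quantile normalization; it served as an alternative. Depth does not apply to arrays, whose number limits the precision. Labelled cRNA was made from 200 ng of total RNA.

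Here log2 processed signal minus the 75th percentile of each array was used. Outlier spots were left out and spots of a probe averaged. Probes well above background on at least 6 of 36 arrays were kept (34774), 93 of them with missing values were dropped, and the brightest probe stood for a gene (22895 genes). Probe coordinates are the design's (mm9); exon or UTR annotation was not used. limma 3.58.1 in R 4.3.3 fitted 6 group means and wash batch (3 batches, each with all groups). The threshold was an adjusted p of 0.05. The model was tested on simulated data. The simulation had independent noise and few changed features, unlike the livers here, so no result rests on it.

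The members and gene lists were chosen with earlier results of these data known. Named genes are the members, Insr, and, of each list, the 3 genes well above background on all arrays with the smallest genotype p. Replicate numbers do not pair the mice. Alternatives were other background correction, scaling, filters, probe summaries, block terms, array weights and leaving out each array. Fits of Stat5a without its high control livers, and counts without features detected in 1 genotype only, were added after seeing the data.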

Additional observations from a re-analysis of the deposited data

Results flagged for a closer look

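In 60 groups of 6 livers (10 genes), 5 held a liver far from the other 5 by Dixon's criterion, where chance gives about 1 in 20 groups, or 3. Stat5a was 4.03 in control ZT8 replicate 5 (others 2.35 to 2.68), 4.05 in control ZT12 replicate 3 (others 2.39 to 2.80) and 4.24 in control ZT16 replicate 6 (others 2.20 to 2.90). Cux2 was -5.92 in control ZT8 replicate 1 (others -5.00 to -4.51), below the detection limit of the array, and 0.10 in knockout ZT16 replicate 6 (others -0.99 to -0.59). The genotype effect on Cux2 differed between times, by -2.06 from ZT8 to ZT16 (limma, adjusted p = 0.00037); every knockout lay above every control at both times.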

How the results depend on the processing

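Of 764 member values recomputed under 13 other settings of the whole data set, 729 kept their side of the threshold. Of the rest, 14 lost a call and 21 gained one. No called value changed sign, but some uncalled values did. With the mean of all probes, Ghr from ZT8 to ZT16 in knockouts went from 0.17 to -0.12, and Prlr from 0.08 to -0.41. The Jak2 genotype difference at ZT8 went from -0.02 to 0.18. Member counts fell within single wash batches, which hold 11 to 13 arrays: at ZT8 from 4 to 2 in batch 1, at ZT12 from 6 to 3 in batches 1 and 2, and at ZT16 from 5 to 2 in batch 2. The calls over all genes fell as well, with fewer arrays in each fit. At ZT8 they fell from 8119 to 445 in batch 1 and 3929 in batch 3. At ZT12 they fell from 9686 to 472 in batch 1 and 5054 in batch 2. At ZT16 they fell from 9160 to 3748 in batch 2 and 4977 in batch 3. Counts are left out where a batch held a single array of a group compared. Members called over time in controls went from 3 to 1 with the mean of all probes, and in knockouts from 5 to 3 without the filter on dim probes or with slide as a fixed block. Members called in the genotype by time test went from 1 to 2 with normexp, quantile scaling or the authors' table, to 4 with array weights, and to 0 with the filter on all 36 arrays, which removes Cux2. Over all genes that test called 1937, against 1275 without the filter, 3686 with array weights and 2987 without knockout ZT8 replicate 3. Leaving out each array in turn gave 4 to 7 members at ZT8, 5 to 6 at ZT12, 5 to 6 at ZT16, 2 to 4 and 3 to 7 over time in controls and knockouts, and 1 to 2 by genotype and time. Same-numbered mice of different groups did not deviate together (median r = -0.005 over 90 pairs), and with a replicate block the counts stayed at 4, 6, 5, 3, 5 and 1; the block changed 1 member call, Onecut1 from ZT8 to ZT16. Causes were not tested. Dim signal limits Cux2 in controls.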

Other observations

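The high Stat5a values of the brighter probe were shared by other genes on the same arrays. Psd4, a guanine nucleotide exchange factor gene, and Acer2, a ceramidase gene, were picked after the values were seen, as genes whose deviations followed Stat5a most closely. On the 4 arrays with the highest Stat5a (3.36 to 4.24), Psd4 ran from 0.68 to 1.44 and Acer2 from 0.24 to 0.86. On the other 32 arrays Psd4 ran from -1.35 to -0.27 and Acer2 from -0.76 to 0.00. The 4 arrays belong to 4 groups, 3 of them control groups.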
